A study of Mus musculus with 3 samples.

Results

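The Iroquois genes Irx1, Irx2, Irx3, Irx4, Irx5 and Irx6 encode homeodomain transcription factors and lie in 2 clusters of 3 genes each in the mouse genome. They were taken by name from the GENCODE M21 annotation of mm10, and make up 6 of the 21728 protein-coding genes analysed. Irx1, Irx2 and Irx4 lie on chromosome 13 and Irx3, Irx5 and Irx6 on chromosome 8. Their chromatin was described by DNase-seq, which maps stretches of DNA that the nuclease DNase I can cut and which are mostly promoters and enhancers. The cells were labelled as Müller cells, the radial glia of the retina, obtained as healthy primary cells at 12 days after birth from B6NCrl mice with males and females pooled. There was 1 group with 3 biological replicates and no contrast between conditions. Each replicate has a biosample label of its own and all share a donor label, so a standard deviation measures how far these samples lie apart, and that spread can be technical. The labels point to a protocol for nuclei of cultured cells and name no sort, no treatment and no time in culture.

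Iroquois proteins carry a homeodomain of the TALE class, which has an extra loop between its first helices, and bind a short palindromic DNA word. The paired clusters arose from duplication of an ancestral cluster, and within each of them the genes are separated by long stretches with few coding genes that hold many conserved enhancers. The family patterns the neural plate, the heart, the limbs and the kidney. In the mouse retina its members are known mainly from neurons of the inner retina, with Irx5 and Irx6 used as markers of cone bipolar cell types and several members expressed in ganglion cells.

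A peak is a position that the authors called as accessible in one replicate, and it carries a deposited score between 1 and 150 whose meaning is not stated. Replicates 1, 2 and 3 had 300269, 281185 and 184544 peaks, with median scores of 53, 44 and 42, and the read depth behind them is unknown. Merging overlapping peaks gave 352310 regions. The 145369 that every replicate supports with a peak are called reproducible sites. A promoter is called open if at least 1 reproducible site falls no more than 1 kb from one of the annotated starts of the gene, which describes accessibility and not transcription. The cell label was checked with marker promoters. All 10 of 10 Müller glia markers were open, among them Rlbp1 and Glul, but so were 5 of 5 astrocyte markers. Open promoters were also found for 4 of 6 ganglion cell markers, 5 of 8 bipolar cell markers, 3 of 6 rod markers and 3 of 6 endothelial markers. Of all protein-coding genes 68.3% were open, a share that these last 4 lists did not exceed. The marker promoters therefore do not tell Müller glia from astrocytes. Replicate 3 stood apart from the others at promoters of macrophage and microglia markers. All 10 genes of that list had a promoter peak in replicates 1 and 2, with summed scores of 777 and 749, and none had one in replicate 3, where the sum was 0.

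Sequences are shown here for the sites on which the description turns. The promoter windows of Irx2 and Irx4, as RefSeq gives them on GRCm38.p6 (the assembly of mm10), run from 250 bases before to 50 bases after the start on the plus strand. They are shown because the first held a reproducible site and the second did not, although both are dense in CpG dinucleotides, which are in capitals. RefSeq windows were matched for 3 of the 6 genes, Irx2, Irx3 and Irx4, and the Irx3 window is not printed since it falls inside the first exon of the GENCODE model. Irx1, Irx5 and Irx6 had no entry. The Irx2 window (chr13:72628570-72628869) holds 25 CpG and the Irx4 window (chr13:73260247-73260546) 31, against a median of 7 over 32851 RefSeq windows.
Irx2 promoter: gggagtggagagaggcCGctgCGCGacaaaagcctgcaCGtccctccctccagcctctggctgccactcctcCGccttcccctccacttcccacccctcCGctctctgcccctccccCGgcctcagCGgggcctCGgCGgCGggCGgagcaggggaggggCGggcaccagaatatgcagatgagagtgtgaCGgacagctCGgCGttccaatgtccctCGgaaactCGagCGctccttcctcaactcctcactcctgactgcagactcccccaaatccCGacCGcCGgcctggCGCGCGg
Irx4 promoter: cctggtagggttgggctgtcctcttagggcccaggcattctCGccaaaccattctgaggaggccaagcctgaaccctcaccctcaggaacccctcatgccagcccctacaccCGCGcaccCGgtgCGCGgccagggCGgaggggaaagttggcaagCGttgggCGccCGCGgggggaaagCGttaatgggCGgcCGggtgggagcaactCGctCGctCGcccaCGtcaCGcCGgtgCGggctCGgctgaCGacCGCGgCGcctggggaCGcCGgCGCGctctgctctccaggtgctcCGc

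The strongest reproducible sites over 1 kb from a coding start follow, 3 in each domain and 1 more in an Irx5 intron, from the same assembly and on the plus strand. Capitals mark matches to the short motif words searched, which are spelled out further on. The chromosome 13 sites lie at chr13:72210056-72210225 and chr13:72301996-72302165, both between Irx1 and Irx2, and at chr13:73160416-73160585, before Irx4. The chromosome 8 sites lie at chr8:92356096-92356265, which spans the start of the non-coding gene Crnde, at chr8:92721656-92721845 and chr8:92747996-92748205, both past Irx6, and at chr8:92362116-92362285 in an intron of Irx5.
Distal site between Irx1 and Irx2, nearest Irx1: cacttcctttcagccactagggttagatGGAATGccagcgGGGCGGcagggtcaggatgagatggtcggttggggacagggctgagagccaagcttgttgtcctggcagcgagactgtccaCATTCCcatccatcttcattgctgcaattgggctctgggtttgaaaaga
Distal site between Irx1 and Irx2, nearest Irx2: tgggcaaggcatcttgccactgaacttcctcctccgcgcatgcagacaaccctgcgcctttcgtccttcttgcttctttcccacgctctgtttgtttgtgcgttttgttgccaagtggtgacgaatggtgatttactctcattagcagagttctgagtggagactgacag
Distal site before Irx4: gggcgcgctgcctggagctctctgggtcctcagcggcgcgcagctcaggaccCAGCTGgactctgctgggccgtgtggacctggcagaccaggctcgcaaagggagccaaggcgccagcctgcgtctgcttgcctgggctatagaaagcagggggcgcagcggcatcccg
Site at the Crnde start: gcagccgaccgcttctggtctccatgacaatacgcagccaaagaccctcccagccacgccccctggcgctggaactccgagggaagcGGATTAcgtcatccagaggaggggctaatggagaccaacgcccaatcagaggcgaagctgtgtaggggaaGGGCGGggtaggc
Site past Irx6, nearer to the gene: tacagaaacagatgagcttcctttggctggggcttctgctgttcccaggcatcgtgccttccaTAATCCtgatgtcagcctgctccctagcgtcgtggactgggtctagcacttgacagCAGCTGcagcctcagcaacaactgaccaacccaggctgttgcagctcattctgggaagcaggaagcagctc
Site past Irx6, farther from the gene: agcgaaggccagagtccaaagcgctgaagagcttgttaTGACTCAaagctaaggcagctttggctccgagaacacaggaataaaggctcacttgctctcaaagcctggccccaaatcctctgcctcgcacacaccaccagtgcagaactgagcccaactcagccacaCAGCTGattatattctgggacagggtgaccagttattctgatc
Irx5 intron site: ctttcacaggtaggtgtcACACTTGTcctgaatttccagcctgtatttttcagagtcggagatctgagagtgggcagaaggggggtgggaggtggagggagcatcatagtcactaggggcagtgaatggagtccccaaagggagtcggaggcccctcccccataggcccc

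The promoters of Irx3, Irx5, Irx6 and Irx2 were open and those of Irx1 and Irx4 were not. This makes 4 of the 6 genes open, beside 68.3% of all protein-coding genes, which is a share near this background. Peaks within 1 kb of a start were present for 5, 4 and 6 Irx genes in replicates 1, 2 and 3, where 74%, 73% and 70.8% of all genes had one. The median of the strongest promoter score over the 6 genes, with 0 where there was no peak, was 90.5, 76 and 99 in the 3 replicates, beside 104, 92 and 91 over all genes. In order of mean score, with 0 where there was no peak, the genes ran Irx5, Irx3, Irx2, Irx6, Irx1 and Irx4. The values of Irx5 and Irx3 overlapped, as did those of Irx2 and Irx6 and those of Irx1 and Irx4. None of these pairs can be ordered beyond its spread.

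**Figure D1:**
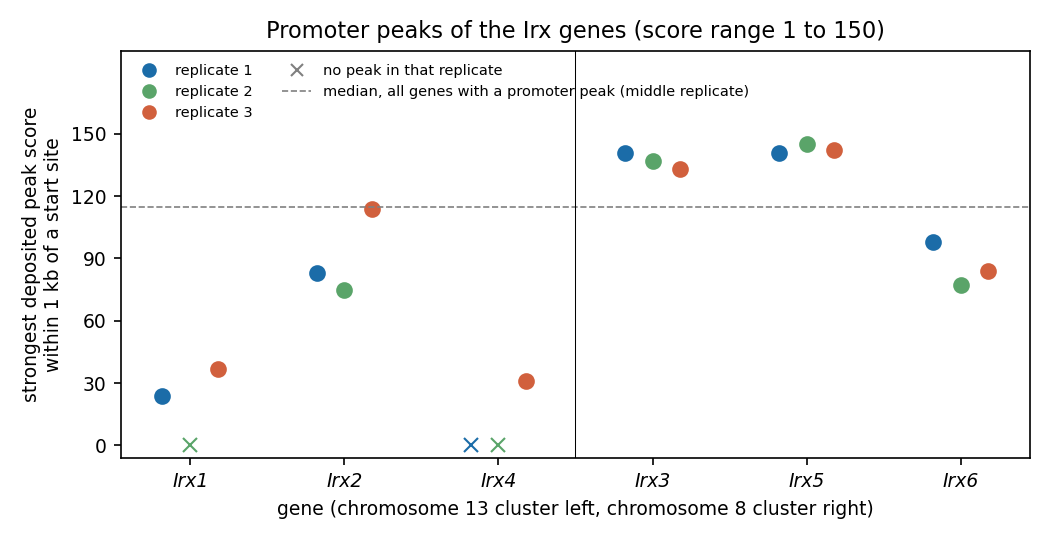
Strongest deposited peak score within 1 kb of a start site for each Irx gene, 1 point per replicate, with crosses at 0 where a replicate has no peak and a dashed line at the median of all genes with a promoter peak in the middle replicate (115). Irx3 and Irx5 lie between 133 and 145 in every replicate, Irx2 and Irx6 lie lower, and Irx4 has a peak in replicate 3 alone.

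Irx5, a regulator of cone bipolar cell differentiation in the mouse retina, had a strong promoter peak in every replicate. Irx5 (ENSMUSG00000031737.11, chr8:92357625-92376286, plus strand) had scores of 141, 145 and 142 in replicates 1, 2 and 3, a mean of 143 ± 2.08 (SD, n = 3). These scores stood at the 98.7th, 99.8th and 99.6th percentile of all peaks of their replicate, and at the 81.9th, 95.6th and 95.7th among the strongest promoter peaks of all genes. The site, chr8:92357656-92357825, overlaps an annotated start and lies in the first exon. A further region 747 bp from a start had scores of 67 and 53 in replicates 1 and 2 and no peak in replicate 3. Hotspots, the wider accessible stretches that the authors deposited with a −log10 q, covered 4313, 3777 and 3255 bp where they touched the Irx5 promoter window, the largest total among the 6 genes in each replicate. Their highest −log10 q was 100, the top of the deposited range, in all 3 replicates.

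Irx3, which patterns the neural tube and acts in the developing heart, had 3 reproducible sites within 1 kb of a start. Irx3 (ENSMUSG00000031734.13, chr8:91798525-91802067, minus strand) scored 141, 137 and 133 at the strongest, chr8:91801956-91802105, with a mean of 137 ± 4 (SD, n = 3). The other sites scored 123, 108 and 120, and 79, 58 and 77. The replicates gave like values at each, and no promoter peak of Irx3 was missing from any of them. The strongest site also lies within 1 kb of a start of the antisense gene Irx3os, so the accessibility of one promoter cannot be told from that of the other. Hotspots covered 1773, 1468 and 2007 bp there.

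Irx6, a transcriptional regulator in cone bipolar cells, was open at a lower score. Irx6 (ENSMUSG00000031738.14, chr8:92674288-92680956, plus strand) scored 98, 77 and 84, a mean of 86.3 ± 10.7 (SD, n = 3), at chr8:92673616-92673805, which ends 483 bp before the first start. A weaker reproducible site 8 bp past the start scored 46, 26 and 45. The strongest peak of Irx6 lay at the 29th, 23.8th and 24.8th percentile of promoter peaks of all genes, so most open promoters had a higher score. With a window of 500 bp the mean for Irx6 falls to 52, since the stronger site is then only partly counted: replicates 1 and 2 are left with 46 and 26.

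Irx2, which is expressed in developing limbs and neural tissue, was the only member of the chromosome 13 cluster with an open promoter. Irx2 (ENSMUSG00000001504.10, chr13:72628820-72634198, plus strand) scored 83, 75 and 114, a mean of 90.7 ± 20.6 (SD, n = 3), at 1 site, chr13:72628596-72628765, that ends 55 bp before the first start and lies within the promoter window printed above. The score of replicate 3 was the highest of the 3 there, and at the 50.3rd percentile of its promoter peaks, against the 21.7th and 22.8th in replicates 1 and 2. The same site lies within 1 kb of the start of the non-coding gene Gm20554. Replicate 3 had 7 peaks within 1 kb of the Irx2 starts where replicates 1 and 2 had 2 each.

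Irx1, which is expressed in the embryonic lung and nervous system, had weak promoter peaks, none of them found in every replicate. Irx1 (ENSMUSG00000060969.9, chr13:71957921-71963723, minus strand) had a strongest score of 24 in replicate 1, no promoter peak in replicate 2, and 37 in replicate 3. At the first start the peaks came from replicate 3 alone, with scores of 37, 30 and 35 in order along the gene. Replicate 1 had its peaks at internal starts, where 2 regions were shared with replicate 3 and scored 24 and 31, and 20 and 23. Leaving out replicate 2 makes Irx1 open by the same rule, and 5 of the 6 genes are then open. The highest −log10 q of an Irx1 promoter hotspot was 2.39 in replicate 1 and 4.68 in replicate 3, far under the values of the open members.

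Irx4, known for its part in the identity of the ventricles of the heart, had promoter peaks in replicate 3 alone. Irx4 (ENSMUSG00000021604.15, chr13:73260479-73269608, plus strand) had no promoter peak in replicates 1 and 2, and 4 peaks in replicate 3 with scores of 31, 18, 18 and 19. The highest, chr13:73260336-73260485, overlaps the first start and lies in the Irx4 window printed above. Such a pattern, a promoter peak in replicate 3 alone, was found for 162 of all genes (0.746%). The 1 reproducible site in the Irx4 gene body lay in an intron, chr13:73264156-73264405, with scores of 34, 26 and 25.

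**Figure D2:**
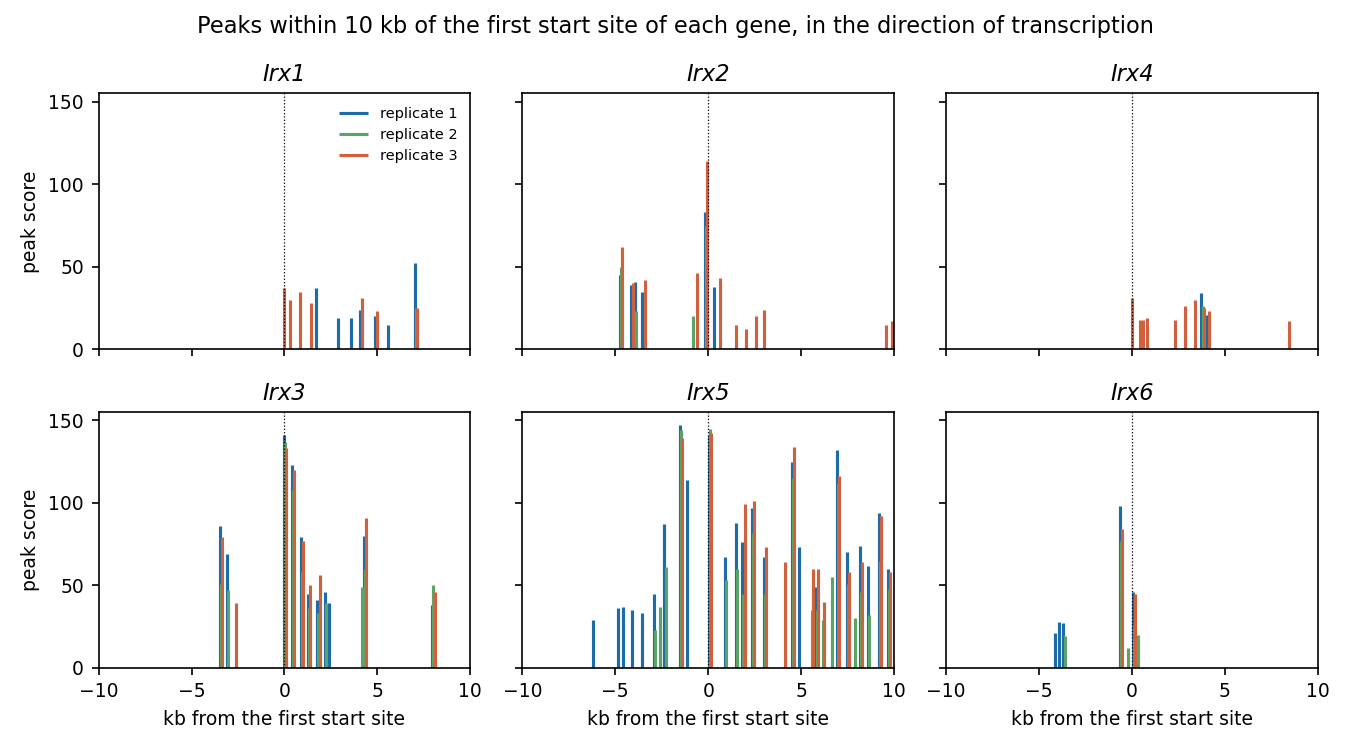
Strongest peak score of each region within 10 kb of the first annotated start of each Irx gene, with distance in kb in the direction of transcription and 1 colour per replicate (bars of a region are set slightly apart so that all are visible). Irx3 and Irx5 show tall bars of all 3 replicates, while the bars past the starts of Irx2 and Irx4 are low and mostly from replicate 3.

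CpG content did not separate the open from the other members. CpG-rich promoters are defined here by at least 50% GC and a CpG observed to expected ratio of at least 0.6 in the 1000 bp around the start, and all 6 Irx genes met both. The ratio was 0.898 for Irx1, 0.917 for Irx2 and 0.810 for Irx4, and lower for Irx3 (0.643), Irx5 (0.755) and Irx6 (0.617). The cluster with 1 open promoter of 3 thus had the higher ratios. Among all 9723 CpG-rich genes 96.7% were open, a larger share than the 4 of 6 Irx genes. Irx1 and Irx4 belong to the 324 that were not, of which 131, 82 and 151 had a promoter peak in replicates 1, 2 and 3, and 42 had one in replicate 3 alone.

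The surroundings of the clusters differed in how many peaks they held. The span of the chromosome 13 cluster with 100 kb on either side, chr13:71857921-73369608, held 148 regions, of which 52 (35.1%) were reproducible. The same extent on chromosome 8, chr8:91698525-92780956, held 227 regions, of which 95 (41.9%) were reproducible, where 41.3% of all regions on autosomes and X were. Reproducible sites numbered 3.44 per 100 kb in the chromosome 13 domain and 8.78 per 100 kb in the chromosome 8 domain, against 5.52 over autosomes and X. Without replicate 3, regions shared by replicates 1 and 2 numbered 74 and 158.

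Each replicate showed the order separately. The chromosome 13 domain had 114, 85 and 95 peaks in replicates 1, 2 and 3, or 7.54, 5.62 and 6.28 per 100 kb, where the genome had 11.4, 10.7 and 7. The chromosome 8 domain had 192, 198 and 124 peaks, or 17.7, 18.3 and 11.5 per 100 kb. All 3 replicates thus lay under their genome value in the first domain and above it in the second. Relative to the genome the density was 0.695 ± 0.188 (SD, n = 3) in the chromosome 13 domain and 1.64 ± 0.0791 (SD, n = 3) in the chromosome 8 domain. The chromosome 8 density was higher by a factor of 2.35, 3.26 and 1.83 in the 3 replicates. An exact paired permutation test over the 3 replicates, two-sided, gave p = 0.25 for this difference, the smallest p that 3 pairs allow. With the same order in all 3 replicates no other value was possible, so the test does not decide whether the domains differ.

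**Figure D3:**
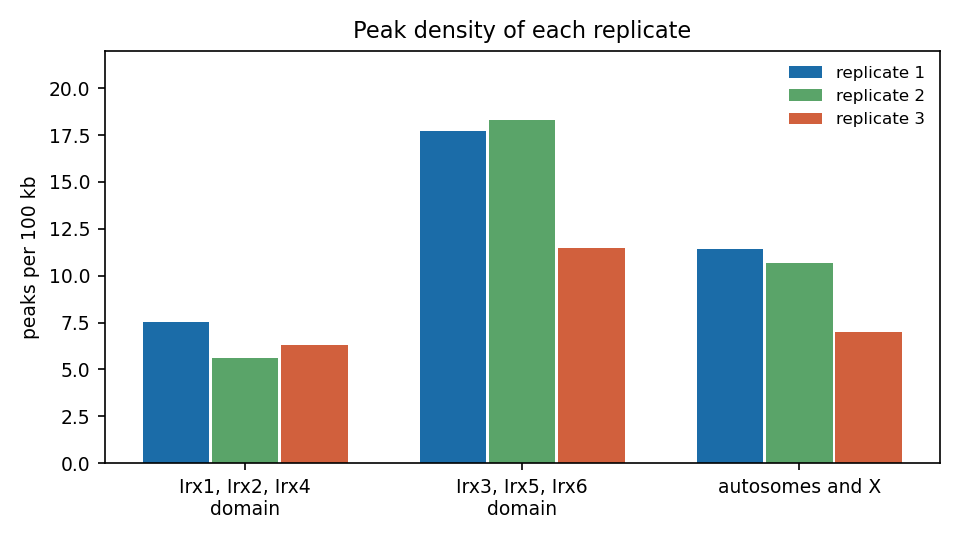
Bars give the peaks per 100 kb of each replicate in the Irx1, Irx2, Irx4 domain, in the Irx3, Irx5, Irx6 domain, and over autosomes and X. The first domain lies between 5.62 and 7.54 and the second between 11.5 and 18.3, and replicate 3 has the lowest genome value of 7.

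Peaks found in replicate 3 alone took a larger share of the chromosome 13 domain than of the genome, while the chromosome 8 domain was near the genome in this and in the share of peaks missing from replicate 3. Regions with a peak in replicates 1 and 2 only made up 22 of 148 (14.9%) in the chromosome 13 domain and 63 of 227 (27.8%) in the chromosome 8 domain, against 25.4% of all regions on autosomes and X. Regions of replicate 3 alone made up 28 of 148 (18.9%) and 10 of 227 (4.41%), against 5.67% over autosomes and X. The replicates that have these missing peaks are those with promoter peaks at the 10 macrophage and microglia markers, and the part of other cells in the Irx domains was not tested.

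The regions of replicate 3 alone in the chromosome 13 domain lay close to the Irx genes. Of the 28, 20 lay within 10 kb of an Irx start, against 2 of 10 in the chromosome 8 domain. In the chromosome 13 domain this held for 5 of 52 reproducible sites, 6 of 26 regions of replicate 1 alone and 1 of 8 of replicate 2 alone. The share near gene starts over the genome was not computed. The 28 regions had a median GC content of 59.7% and a median CpG ratio of 0.633, where regions of replicate 3 alone over autosomes and X had 52% and 0.249. Most of the 28 lie near the CpG-rich Irx promoters, and composition was not compared at like distance from a start. The 28 were weak, with scores from 10 to 46 and a median of 19, beside 24 over the genome. By gene body, replicate 3 alone gave 3 regions in Irx1, 5 in Irx2 and 7 in Irx4, and 0 in Irx3, 1 in Irx5 and 0 in Irx6. The strongest over 1 kb from a coding start on chromosome 13 scored 30 in an Irx4 intron, 28 in an Irx1 intron and 28 in an exon of the non-coding gene Eprn.

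**Figure D4:**
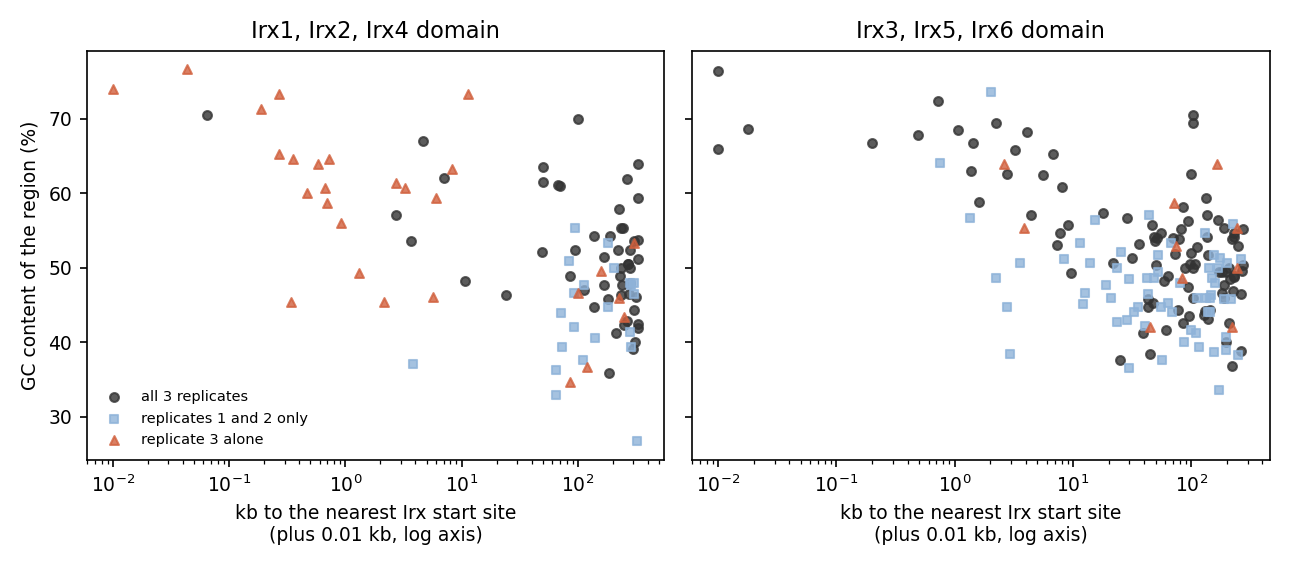
GC content of each region in percent against its distance in kb to the nearest Irx start on a log axis (0.01 kb was added so that regions on a start can be drawn), for regions with a peak in all 3 replicates, in replicates 1 and 2 only, and in replicate 3 alone. On the left, 20 of the 28 regions of replicate 3 alone and 5 of the 52 reproducible sites lie within 10 kb of a start. On the right, 2 of 10 and 22 of 95 do.

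Along the chromosome 13 cluster the reproducible sites were concentrated between Irx1 and Irx2. That interval of 665096 bp held 30 of them (4.51 per 100 kb), and the interval of 626280 bp between Irx2 and Irx4 held 13 (2.08 per 100 kb). The gene bodies of Irx1 and Irx2 held 0 and that of Irx4 held 1. The densest 100 kb, which begins at position 72197960, held 15 sites, all of them intergenic and none closer than 234113 bp to an Irx start. Beyond it, a stretch of 180871 bp before Irx2 had no reproducible site. Only 4 regions lay in that stretch, with peaks of 2, 2 and 1 of them in replicates 1, 2 and 3.

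**Figure D5:**
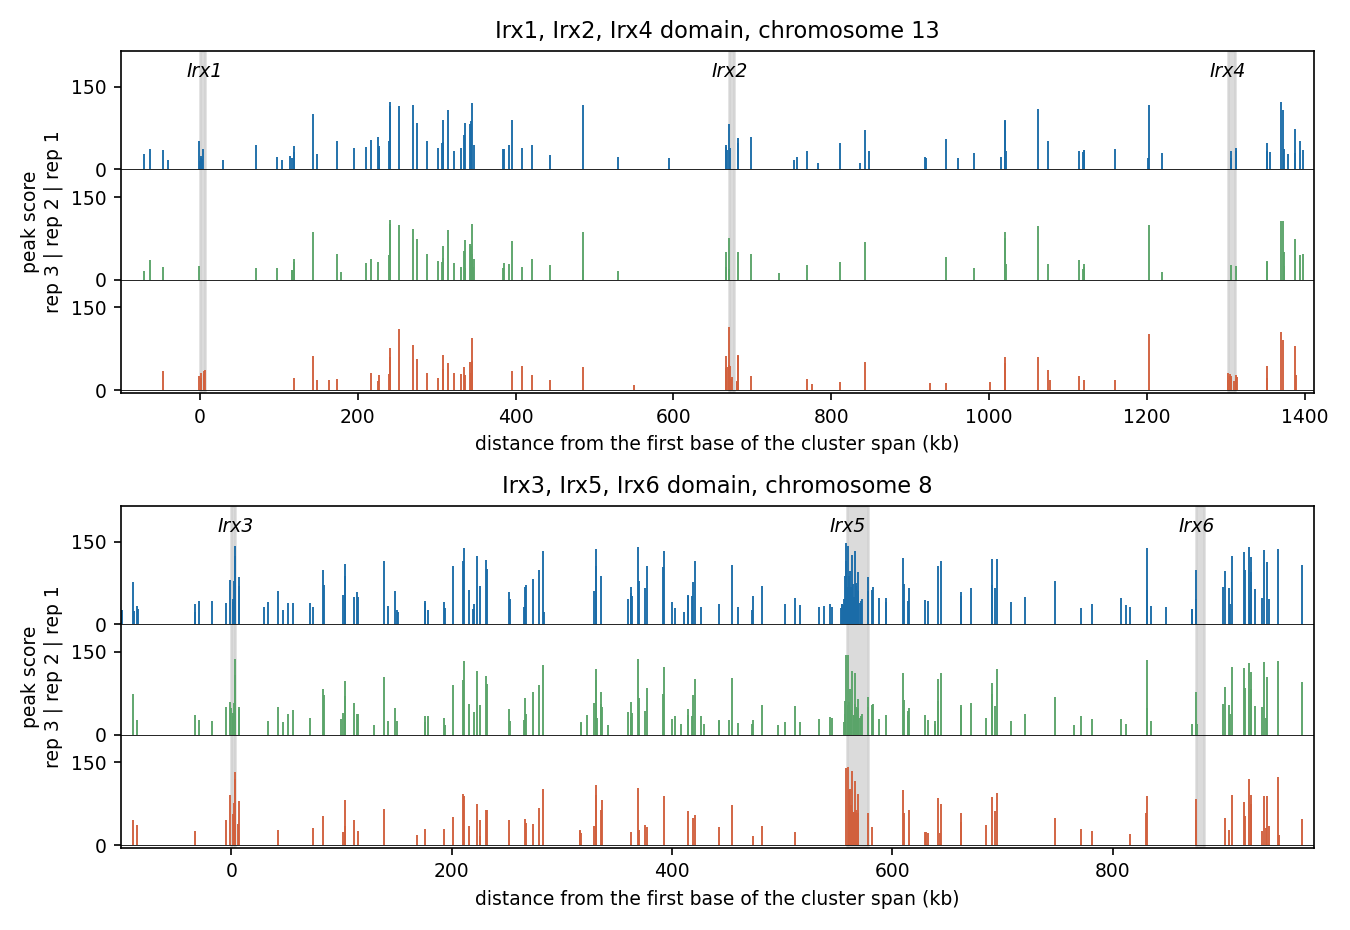
Strongest peak score of every region along both domains, with 1 track per replicate, distance in kb from the first base of the cluster span and gene bodies in grey. The upper map has a group of sites between Irx1 and Irx2 followed by the stretch of 180871 bp without reproducible sites, and the lower map has its densest window of 100 kb, with 20 reproducible sites, from Irx5 onwards.

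The strongest distal sites of the chromosome 13 domain had scores near 100. The site at chr13:72210056-72210225, 246333 bp from the nearest Irx start, scored 115, 99 and 110. The site at chr13:73160416-73160585, 99894 bp before Irx4, scored 117, 99 and 102. The site at chr13:72301996-72302165 scored 121, 102 and 95. Next came chr13:72227196-72227405 with 116, 92 and 81, and chr13:72198396-72198565 with 123, 108 and 77. Of these 5, 4 lay between Irx1 and Irx2. In each the score of replicate 2 was under that of replicate 1, and only at the first 2 did replicate 3 exceed replicate 2. The strongest regions of replicates 1 and 2 only in the domain scored 51 and 45, 45 and 38, and 36 and 47, and 2 of the 3 lay past Irx4, near Eprn.

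Along the chromosome 8 cluster the gene bodies of Irx3 and Irx5 held more reproducible sites per length than the intervals between the genes. The 18662 bp of Irx5 contained 12 reproducible sites (64.3 per 100 kb) and the 3543 bp of Irx3 contained 5 (141 per 100 kb). These are short stretches that include promoter sites, 3 in Irx3 and 1 in Irx5, and gene bodies of like length elsewhere were not counted. The Irx3 promoter window touched 1 hotspot in each replicate, so several sites there lie in 1 wider accessible stretch. The densest 100 kb of the domain, with 20 sites, begins at the site before the Irx5 start. The interval between Irx3 and Irx5 held 42 in 555557 bp (7.56 per 100 kb), that between Irx5 and Irx6 held 17 in 298001 bp (5.70 per 100 kb), and the 100 kb past Irx6 held 13. The Irx6 gene body held 1 site. Counted within 100 kb of a start, Irx5 had 23 reproducible sites, Irx6 17, Irx3 15, Irx4 8, Irx2 5 and Irx1 2, where the median protein-coding gene had 16.

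Within Irx5 the scores ran from 49 to 141 in replicate 1, from 35 to 145 in replicate 2 and from 58 to 142 in replicate 3. The intron site printed above, chr8:92362116-92362285, scored 125, 115 and 134, and a second intron site, chr8:92364536-92364705, scored 132, 112 and 116. At 6 of the 12 sites replicate 3 had a higher score than replicate 1, a count chosen after its values were seen. The same held for 2 of 5 sites in the Irx3 gene body and 3 of 5 in the flank before Irx3, for 1 of 42 between Irx3 and Irx5, 1 of 17 between Irx5 and Irx6, 0 of 1 in the Irx6 gene body and 0 of 13 past Irx6. It held for 13 of 95 (13.7%) in the whole domain and for 8.73% of reproducible sites over autosomes and X, and no test was made of these counts. The median scores inside Irx5 were 75, 50.5 and 82.5, and those past Irx6 were 113, 105 and 78. The strongest region of replicate 3 alone in the domain, with a score of 64, lay in an Irx5 intron as well.

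The strongest site of either domain outside an Irx promoter lay 1360 bp from the nearest Irx5 start, at chr8:92356096-92356265. It scored 147, 144 and 139, in each replicate at or above the 99.3rd percentile of peaks, and spans the start of Crnde, a long non-coding RNA transcribed away from Irx5. The sites past Irx6 followed, chr8:92747996-92748205 with 136, 134 and 124, and chr8:92721656-92721845 with 140, 129 and 120. They lay 73170 and 46830 bp from the nearest Irx6 start, in a group that also holds the site of the pseudogene Gm3272, with 131, 121 and 78. The strongest 3 regions of replicates 1 and 2 only scored higher here than on chromosome 13, with 103 and 74, 88 and 77, and 86 and 68. They were taken from 63 such regions here and from 22 on chromosome 13. The medians of all such regions in replicates 1 and 2 were 42 and 33 here and 37 and 26.5 on chromosome 13. Over autosomes and X they were 45 and 34.

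Over all reproducible sites of the domains, the chromosome 13 medians were 58, 48.5 and 37.5 and the chromosome 8 medians were 80, 69 and 59, beside 79, 65 and 48 over the genome. Most sites lay over 1 kb from a coding start, 49 of 52 and 89 of 95. So did most over autosomes and X, 117324 of 145262. In the chromosome 13 domain 47 of 52 were intergenic, and 37 lay over 100 kb from an Irx start. In the chromosome 8 domain 65 of 95 were intergenic, 16 lay in introns and 14 in exons, and 39 lay over 100 kb from an Irx start. The genome share of intergenic sites was not set beside these counts. Scores of the same regions correlated between replicates, as a description across sites that share a library. Spearman's rho between replicates 1 and 2 was 0.886 over 74 regions on chromosome 13 and 0.939 over 158 on chromosome 8. Between replicates 1 and 3 it was 0.737 over 52 and 0.794 over 95 reproducible sites. Over these same reproducible sites it was 0.906 and 0.955 between replicates 1 and 2, and 0.763 and 0.723 between replicates 2 and 3.

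Few other coding genes share these domains. The chromosome 13 domain held starts of 16 other annotated genes, of which 2 code for proteins, and the chromosome 8 domain held starts of 17, none of them protein-coding. The coding pair, Ndufs6 and Mrpl36, which encode a subunit of mitochondrial complex I and a mitochondrial ribosomal protein, shares a promoter site that scored 123, 107 and 106. Of the other genes, 4 of 14 on chromosome 13 and 7 of 17 on chromosome 8 had a reproducible site within 1 kb of a start. These counts include Gm20554 and Irx3os, which share promoter sites with Irx2 and Irx3. The share over all non-coding genes was not computed. For Eprn this was a site in an intron, 939 bp from the start, with scores of 74, 74 and 80.

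Other transcription factor genes of the class and of the neurons in which Irx genes are known were set beside the family. All 12 of 12 TALE homeobox genes outside the Irx family (the Meis, Pbx, Pknox and Tgif genes and Mkx, of which the Meis and Pbx proteins are partners of Hox proteins) were open. Their lowest score was 82, 74 and 85 in the 3 replicates, at Meis3, and their highest 146, 148 and 141, at Pknox1. Of 12 bipolar cell regulators 10 were open. The exceptions were Bhlhe23, with no promoter peak, and Otx2, with none, 21 and 41. Of 12 ganglion cell regulators 10 were open, including Pou4f2 with 36, 25 and 53. The exceptions were Eomes, with a score of 53 in replicate 3 alone, and Tbr1, with 43 and 21 in replicates 1 and 2. Of the 39 Hox genes, which like the Irx genes lie in clusters, 8 were open. These counts are descriptions of small lists and stand beside 68.3% of all genes.

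Short words recognised by factor families were counted on both strands in 150 bp around the centre of each reproducible distal site, 49 on chromosome 13 and 89 on chromosome 8. The Iroquois word ACANNTGT occurred in 2 and 8 of these, beside 4.21% of the 117324 reproducible distal sites, and 1 match lies in the Irx5 intron site printed above. The homeodomain word TAATTA occurred in 7 and 6 (6.87% of all distal sites), and the OTX and CRX word GGATTA in 0 and 4 (4.05%). The AP-1 word TGANTCA occurred in 11 and 17 (21.5%), the TEAD word GGAATG in 14 and 17 (19.8%), and the SOX word ACAATG in 4 and 10 (12.5%). The E-box CAGCTG occurred in 9 and 18 (13.4%) and the SP and KLF word GGGCGG in 5 and 5 (5.21%). The full NFI and RFX palindromes occurred in none, and they are in 0.0886% and 0.0290% of all distal sites. The words were searched independently, so matches of different words can overlap, and a match describes the sequence only. In the printed sites, the OTX and CRX word stands at the Crnde start and at the site past Irx6 that is nearer to the gene, and the TEAD word appears at 2 places in the site nearest Irx1.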

How the data were processed

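DNase-seq peak and hotspot lists of 3 replicates of 1 group were used as the authors deposited them, on mm10. The deposited value of a peak is a score, a whole number from 1 to 150 whose meaning is not stated and which may saturate, as its top equals the peak width of 150 bp. The deposited value of a hotspot is a −log10 q, from 1.30 to 100. Per the file headers and labels each list comes from 1 library. The names of the aligner and caller were not given in the sources used here. Read depth is unknown.

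Repeated peaks were removed (21, 20 and 23) and peaks sharing 1 bp or more were merged. A gene is open where a region supported by all 3 replicates falls within 1 kb of any transcript start (GENCODE M21, 21728 protein-coding genes on autosomes and X). Domains are the cluster spans plus 100 kb on either side. Sites over 1 kb from a coding start are distal. Sequences came from GRCm38.p6 and, for promoters, from the RefSeq table. Values are descriptions, apart from 1 exact paired permutation test. Distal sites named are the 5 per domain with the highest minimum score, the 3 strongest regions of replicates 1 and 2 only, and the 3 strongest of replicate 3 alone, and other genes are named from lists where they differ from most of their list. Members and lists were chosen with earlier results of these data known. The scripts (Python 3.11.15, pandas 2.3.3, numpy 2.4.6, scipy 1.17.1, pysam 0.24.0) were tested on simulated data. Alternatives left out each replicate, asked for 50% reciprocal overlap, kept the strongest 50% of peaks or equal peak numbers, used hotspots, and changed the window, the start sites and the flank.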

Additional observations from a re-analysis of the deposited data

How the results depend on the processing

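The 4 open Irx genes stayed 4 under all alternatives run apart from 1: without replicate 2 the count was 5, since Irx1 then passed, so leaving out a replicate gave 4 to 5. Sites in the chromosome 13 domain numbered 53 to 74 when a replicate was left out, and those in the chromosome 8 domain 98 to 158, the highest without replicate 3. With the strongest 50% of peaks, 22 and 62 sites were left in the chromosome 13 and chromosome 8 domains, and with equal numbers of peaks per replicate 34 were left on chromosome 13 and 84 on chromosome 8. These settings keep fewer peaks by construction. The median over the 6 genes of the mean promoter score was 88.5 and fell to 71.3 with a window of 500 bp, which drops the stronger Irx6 site in replicates 1 and 2, and lay between 83.25 and 94.75 when a replicate was left out. Of 32 such values under alternatives 27 stayed within 1.5 times the reported value for a count, or within 1 SD of the replicates for the median score. By the same SD rule 35 of 36 scores of single genes stayed, but the SD is wide where a replicate has no peak: without replicate 3 the mean of Irx4 goes from 10.3 to 0 and that of Irx1 from 20.3 to 12. No paired analysis between groups was possible because there is 1 group, so no groups share replicate numbers. The test between domains sets values of the same replicate against each other. Read depth is unknown, and its part in the low peak number of replicate 3 was not tested. The score may saturate at strong sites such as those of Irx3 and Irx5.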

Other observations

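Outside the domains, the neighbouring gene Fto holds introns in which enhancers that act on Irx3 and Irx5 are known from work on human obesity-associated variants. Fto (chr8:91313525-91668439) had 36 reproducible sites among 89 regions, 10.1 per 100 kb, with 79, 70 and 48 peaks in replicates 1, 2 and 3. Its strongest site away from promoters, chr8:91365936-91366085, scored 136, 125 and 102. Fto thus had more reproducible sites per 100 kb than the 5.52 of autosomes and X and the 8.78 of the chromosome 8 domain. The 64.3 of the Irx5 gene body comes from a far shorter stretch that includes its promoter. The next gene, Rpgrip1l, which encodes a protein of the ciliary transition zone, had 5 reproducible sites among 9 regions. Which gene any of these sites serves was not tested.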
